A study of Mus musculus with 20 samples.

Results

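Immediate early genes were followed in brain RNA of mice with spinal muscular atrophy (SMA), the motor neuron disease caused by low levels of the SMN protein. The 10 genes were Fos, Fosb, Junb, Egr1, Egr2, Arc, Npas4, Nr4a1, Ier2 and Dusp1, chosen by symbol as textbook members of the immediate early response, and each had 1 row among the 45700 genes of the deposited expression table. SMA mice of the severe "Taiwanese" model carried no functional Smn and 1 copy of the human SMN2 transgene (Smn-/-; SMN2tg/0), and the controls were littermates with 1 functional Smn allele and the same transgene (Smn-/+; SMN2tg/0), both congenic on FVB. The controls were thus heterozygous mice that also carried SMN2, and no wild-type brain was included. Whole brains were taken at postnatal day 5, the early-symptomatic stage, with 2 libraries per genotype and fraction, and at postnatal day 7, the late-symptomatic stage, with 3. Each brain lysate was run on a sucrose gradient, and RNA was sequenced from all fractions pooled (total cytoplasmic RNA) and from the polysomal fractions pooled (polysomal RNA, bound by several ribosomes), 20 libraries in all. The labels do not say whether the total and polysomal libraries of 1 number came from the same brain, and p-values measure the spread between libraries. Values are FPKM, fragments scaled to transcript length and library size. The number of reads behind a value is unknown.

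Immediate early genes are transcribed within minutes of a stimulus without new protein synthesis, because the factors that switch them on, such as SRF with its partners and CREB, are already present and are activated by calcium and MAP kinase signaling. In the brain they are widely used as marks of recent neuronal activity, and their transcripts are short-lived. Most encode transcription factors that start a second wave of genes, others act at the synapse, and some shut the signal off again.

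The members were weakly expressed in these brains. All 200 member values lay below the median of the 15247 tested genes in their own library, which was between 10.3 and 11.4 FPKM, and they ran from 0.05 FPKM for Fosb to 9.27 FPKM for Egr1. None was listed at 0. A gene was tested where its mean over the 20 libraries was at least 1 FPKM. By that filter 7 members were tested (Fos, Junb, Egr1, Arc, Nr4a1, Ier2 and Dusp1). Egr2 at 0.97 FPKM lay just under it, Npas4 stood at 0.82 FPKM and Fosb at 0.18 FPKM, and values for these 3 come from a fit with no filter. Just inside the filter stood Ier2, with a mean of 1.73 FPKM.

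**Figure D1:**
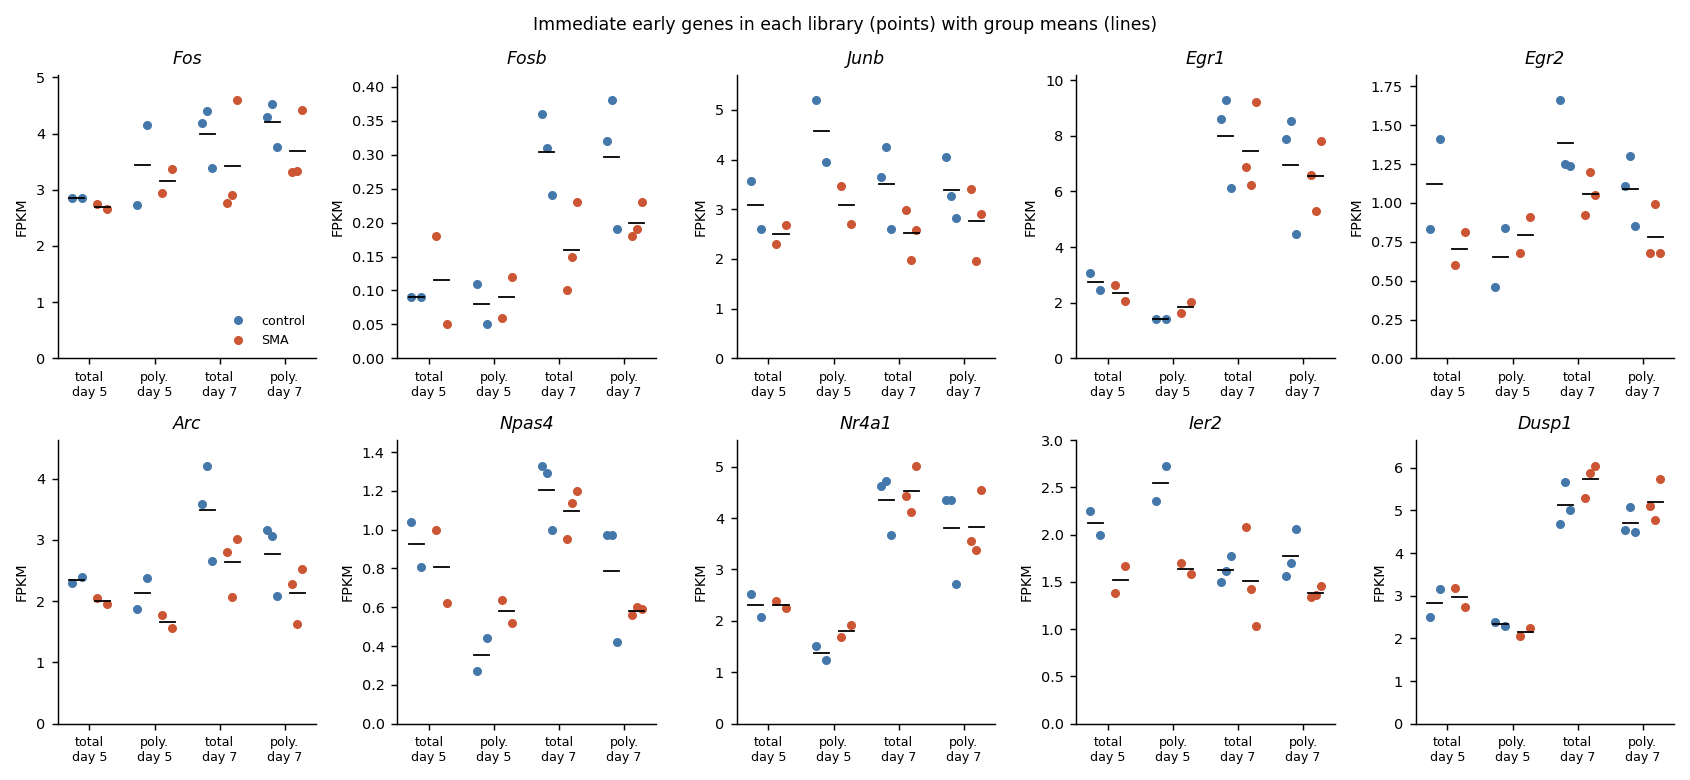
FPKM (y axis, from 0, scaled per gene) of each member in each library (points, blue for control and red for SMA) by fraction and postnatal day, with lines at the group means. Egr1, Nr4a1 and Dusp1 stand higher in all day 7 libraries than in all day 5 libraries, while genotypes mostly overlap.

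The order of the members by level differed between the days. In total RNA at day 5, Dusp1 was highest with a mean of 2.90 ± 0.33 FPKM (SD, n = 4, both genotypes), followed by Junb at 2.79 FPKM, Fos at 2.78 FPKM, Egr1 at 2.54 FPKM, Nr4a1 at 2.31 FPKM, Arc at 2.17 FPKM and Ier2 at 1.82 FPKM. The ranges of each pair of neighbors in this order overlapped. At day 7 Egr1 led with 7.72 ± 1.48 FPKM (SD, n = 6), and its lowest library lay above the highest library of the next gene, Dusp1, at 5.43 ± 0.52 FPKM (SD, n = 6). Nr4a1 followed at 4.43 FPKM, Fos at 3.71 FPKM, Arc at 3.06 FPKM and Junb at 3.01 FPKM, each overlapping its neighbors. In polysomal RNA Junb was highest at day 5 with 3.83 FPKM, and Egr1 was highest at day 7 with 6.76 FPKM, where it overlapped Dusp1 at 4.95 FPKM. Fosb was last in both fractions on both days, with its range apart from that of Npas4 above it.

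The tissue label held against brain markers, with 1 exception in the files. The 8 neuron markers summed to between 1481 and 2293 FPKM in 18 libraries and to 831 FPKM in both day 5 control polysomal libraries, where Tubb3, the most abundant of the list, was listed at 0. It belongs to a block of 64 tested genes on chr8:119910360-124345724 (GRCm38) that were listed at 0 in those 2 libraries and in no other. The 2 members on this chromosome, Ier2 (chr8:84661331-84662852, minus strand) and Junb (chr8:84976909-84978748, minus strand), lie outside the block and had values in every library. The other members sit on chr12:85473890-85477273 (Fos), chr7:19302721-19310045 (Fosb), chr18:34859823-34864984 (Egr1), chr10:67535475-67542188 (Egr2), chr15:74669083-74672570 (Arc), chr19:4984355-4989971 (Npas4), chr15:101266846-101274792 (Nr4a1) and chr17:26505590-26508519 (Dusp1). All are protein-coding, and FPKM covers the exons of the whole gene. Smn1, the disrupted gene, had a mean of 9.32 ± 0.56 FPKM (SD, n = 2) for controls and 9.82 ± 0.38 FPKM (SD, n = 2) for SMA in total RNA at day 5, and at day 7 it ran from 13.6 to 16.7 FPKM for controls and from 11.9 to 17.5 FPKM for SMA. The allele of this model was made by replacing the end of the coding region, and a gene-level FPKM also counts exons that remain, so this value does not check the genotypes. Whether reads of the human SMN2 transgene enter it was not tested.

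The largest differences among the members were between the days. Egr1, Nr4a1 and Dusp1 rose from day 5 to day 7 in both fractions, Ier2 fell in polysomal RNA, and Fos, Junb and Arc did not pass the adjusted threshold in either fraction, though Arc in total RNA lay close to it. The fall of Ier2 was not called under some of the other settings. Day 7 was compared with day 5 as the mean of both genotypes, and a gene was called where the Benjamini-Hochberg adjusted p of limma was under 0.05. In total RNA 3 of the 7 tested members were higher and 0 lower, beside 20.0% of all tested genes higher and 21.8% lower. In polysomal RNA 3 were higher and 1 lower, beside 24% of all tested genes higher and 25.3% lower. With over 4 in 10 of all genes called, the number of members called is near this background. The median log2 change of the 7 tested members was 0.44 in total and 0.34 in polysomal RNA, beside -0.04 for all tested genes in each fraction.

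Egr1, a zinc-finger transcription factor induced by growth factors and synaptic activity, changed most. In total RNA at day 5 it had 3.06 and 2.44 FPKM in controls and 2.62 and 2.06 FPKM in SMA, and at day 7 it had 8.59, 9.27 and 6.11 FPKM in controls and 6.87, 6.24 and 9.22 FPKM in SMA. In polysomal RNA it had 1.41 FPKM in both controls and 1.63 and 2.04 FPKM in SMA at day 5, and 7.87, 8.52 and 4.47 FPKM in controls and 6.57, 5.31 and 7.80 FPKM in SMA at day 7. The days did not overlap in either fraction, and both genotypes moved the same way. The log2 change was 1.55 ± 0.17 (SE, 2.94-fold, adjusted p = 0.000625) in total and 1.97 ± 0.20 (SE, 3.92-fold, adjusted p = 0.000487) in polysomal RNA. Egr2, a relative with a role in myelinating Schwann cells and in the hindbrain, had between 0.60 and 1.41 FPKM in total RNA at day 5 and between 0.92 and 1.66 FPKM at day 7. Its log2 change of 0.42 ± 0.18 (SE) in total RNA had an adjusted p of 0.180 in the fit with no filter.

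Nr4a1, an orphan nuclear receptor also known as Nur77, had 2.53 and 2.07 FPKM in controls and 2.38 and 2.25 FPKM in SMA in total RNA at day 5. At day 7 it had 4.63, 4.73 and 3.67 FPKM in controls and 4.43, 4.11 and 5.02 FPKM in SMA. All 6 libraries of day 7 lay above all 4 of day 5, and the same held in polysomal RNA, where the ranges were 1.24 to 1.92 FPKM and 2.71 to 4.54 FPKM. The log2 change was 0.91 ± 0.11 (SE, 1.88-fold, adjusted p = 0.000797) in total and 1.21 ± 0.17 (SE, 2.31-fold, adjusted p = 0.00129) in polysomal RNA.

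Dusp1, a phosphatase that switches off MAP kinases and so ends the signal that induces it, had 2.51 and 3.16 FPKM in controls and 3.18 and 2.74 FPKM in SMA in total RNA at day 5. At day 7 it had 4.69, 5.66 and 5.02 FPKM in controls and 5.29, 5.87 and 6.05 FPKM in SMA. The days were again apart, in total as in polysomal RNA, where they ran from 2.05 to 2.38 FPKM and from 4.49 to 5.73 FPKM. The log2 change was 0.88 ± 0.10 (SE, 1.85-fold, adjusted p = 0.000610) in total and 1.11 ± 0.07 (SE, 2.16-fold, adjusted p = 9.79e-05) in polysomal RNA.

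The AP-1 members, whose proteins pair as Fos with Jun to bind DNA, showed smaller differences between the days. Fos had 2.85 FPKM in both controls and 2.75 and 2.65 FPKM in SMA in total RNA at day 5, and 4.18, 4.40 and 3.39 FPKM in controls and 2.76, 2.91 and 4.59 FPKM in SMA at day 7. One SMA library of day 7 fell within the day 5 range, and the log2 change of 0.38 ± 0.15 (SE) had an adjusted p of 0.0858. In polysomal RNA Fos ran from 2.72 to 4.15 FPKM at day 5 and from 3.31 to 4.53 FPKM at day 7, with overlap (log2 change 0.26 ± 0.15, SE, adjusted p = 0.176), and it passed without control polysomal replicate 2 of day 5 (0.41, adjusted p = 0.0400), which leaves 1 control library at that day. Junb had 3.57 and 2.61 FPKM in controls and 2.31 and 2.68 FPKM in SMA at day 5, and 3.64, 4.25 and 2.61 FPKM in controls and 2.98, 1.97 and 2.59 FPKM in SMA at day 7. The days overlapped, with a log2 change of 0.08 ± 0.18 (SE, adjusted p = 0.750) in total and -0.30 ± 0.19 (SE, adjusted p = 0.214) in polysomal RNA. Fosb ran from 0.05 to 0.12 FPKM at day 5 and from 0.18 to 0.38 FPKM at day 7 in polysomal RNA, where the days did not overlap and the fit with no filter gave a log2 change of 0.90 ± 0.19 (SE, adjusted p = 0.0166). In total RNA its days overlapped (log2 change 0.69 ± 0.23, SE, adjusted p = 0.0792). At these levels the pseudocount of 0.1 FPKM and the 2 decimals of the table weigh on the change.

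Arc, a synaptic protein that promotes internalization of AMPA receptors, had 2.29 and 2.39 FPKM in controls and 2.05 and 1.96 FPKM in SMA in total RNA at day 5, and 3.59, 4.21 and 2.65 FPKM in controls and 2.80, 2.07 and 3.02 FPKM in SMA at day 7. Only 1 day 7 library, from SMA, lay within the day 5 range. The log2 change was 0.44 ± 0.15 (SE, adjusted p = 0.0511), which passed the threshold without control replicate 3 of day 7 (0.53, adjusted p = 0.0184) or without SMA replicate 2 of day 7 (0.52, adjusted p = 0.0282). With all libraries it also passed with libraries rescaled to equal medians (0.49, adjusted p = 0.0391), in 1 model over all 20 libraries (0.44, adjusted p = 0.0404) and with a correction for transcript length, alone (0.49, adjusted p = 0.0320) or with a block on replicate number (0.53, adjusted p = 0.0410). Npas4, a bHLH-PAS factor that neurons induce on calcium entry, had between 0.62 and 1.04 FPKM at day 5 and between 0.95 and 1.33 FPKM at day 7 in total RNA (log2 change 0.39 ± 0.17, SE, adjusted p = 0.177, fit with no filter). In polysomal RNA the log2 change was 0.34 ± 0.17 (SE, adjusted p = 0.137) for Arc, and 0.46 for Npas4 and 0.33 for Egr2 in the fit with no filter, neither of them called.

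Ier2, a small nuclear protein of the immediate early response, went the other way. In polysomal RNA it had 2.36 and 2.73 FPKM in controls and 1.70 and 1.58 FPKM in SMA at day 5, and 1.56, 1.70 and 2.06 FPKM in controls and 1.34, 1.36 and 1.46 FPKM in SMA at day 7. Within each genotype day 7 lay below day 5, and across genotypes the days overlapped. The log2 change was -0.37 ± 0.09 (SE, adjusted p = 0.0129), and in total RNA -0.21 ± 0.18 (SE, adjusted p = 0.382). The polysomal fall was no longer called in 1 model over all 20 libraries (-0.37, adjusted p = 0.0554) or with the block and the length correction (-0.40, adjusted p = 0.0546).

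**Figure D2:**
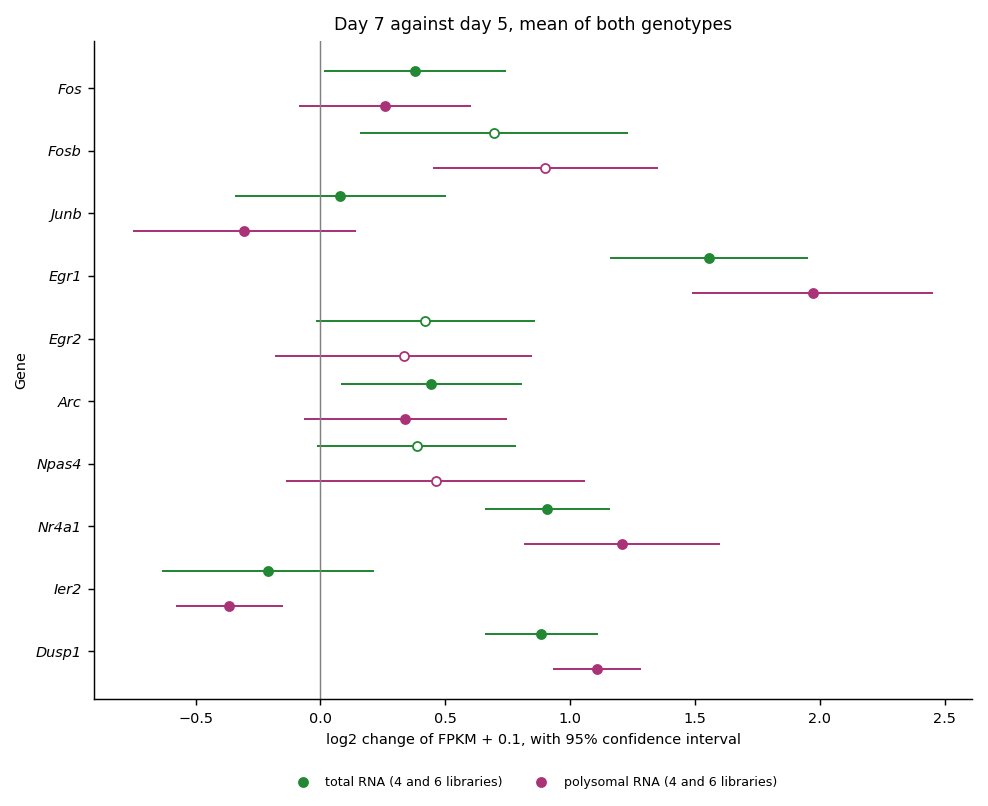
log2 change of FPKM + 0.1 from day 5 to day 7 (x axis) for each member (y axis), as the mean of both genotypes with 95% confidence intervals, in total (green) and polysomal RNA (purple). Filled points are tested members and open points come from the fit with no filter. Egr1, Nr4a1 and Dusp1 lie right of 0 in both fractions, at 0.88 or above.

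Markers of several cell types moved with the days. Beside the counts below, 20.0% of all tested genes rose and 21.8% fell in total RNA. In polysomal RNA 24% rose and 25.3% fell. Of the 8 neuron markers, 5 rose in total and 6 in polysomal RNA (median log2 change 0.40 and 0.62), and 0 fell. The polysomal count includes Tubb3, whose value of 6.56 comes from the zeros of the day 5 controls, and without it 5 of 7 rose in each fraction (median log2 change 0.51 and 0.59). Of 5 microglia markers 3 rose in each fraction, of 5 oligodendrocyte lineage markers 2 rose in each, and of 6 endothelial markers 3 fell in total and 2 fell and 1 rose in polysomal RNA. Of 5 astrocyte markers 2 fell in total and 1 in polysomal RNA, of 5 pericyte and smooth muscle markers 0 and 1 fell, and of 3 tested choroid plexus markers 0 passed in total and 3 fell in polysomal RNA (median log2 change -0.48). Of 6 tested blood markers 2 rose and 1 fell in total, and 1 rose in polysomal RNA. Their part in the changes of the members was not tested. In whole-brain RNA more cells of a type and more RNA per cell cannot be told apart. The stages held different animals, and postnatal day and any difference in preparation between the stages cannot be told apart.

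Upstream and related genes were counted on lists of the same kind. Of all tested genes 41.7% were called between the days in total and 49.3% in polysomal RNA. Of 19 kinases and transcription factors that act upstream of immediate early genes, 12 rose from day 5 to day 7 and 1 fell in each fraction. Mef2d, a calcium-regulated activator of Nr4a1 and other targets, had a log2 change of 1.34 in total and 1.73 in polysomal RNA. Camk2a, the alpha subunit of calcium/calmodulin kinase II, had 0.63 and 1.46, and Mapk3, which encodes ERK1, had 0.58 and 1.00. Creb1, the cAMP response element binding protein, fell by 0.35 and by 0.30. Srf rose in total RNA (0.27, adjusted p = 0.0188) and did not pass in polysomal RNA (0.20, adjusted p = 0.102). Of 7 tested EGR, NR4A and KLF genes outside the members, 4 rose in total and 5 in polysomal RNA with 0 lower, led by Egr3 (1.27 and 1.84). Of 5 tested AP-1 and related bZIP genes 1 rose in total RNA (Jund, 0.78), and 1 rose and 1 fell in polysomal RNA. Of 17 tested feedback and signaling genes 3 rose and 3 fell in total, and 4 rose and 7 fell in polysomal RNA. Among those, Per1 rose (0.58 and 1.08) and Trib1 rose (0.55 and 0.93), while Btg2 fell by 0.59 and by 0.66 and Dusp4, a nuclear MAP kinase phosphatase, fell by 0.61 and by 0.67. Of 10 tested effector genes of neuronal activity 3 rose in total RNA, among them the prohormone convertase gene Pcsk1 (0.49), and Bdnf, a neurotrophin, had 0.18 (adjusted p = 0.0917). In polysomal RNA 2 of the 10 rose and 1, Homer1, fell by 0.21.

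The promoters of members that moved with the days and of members that were not called are shown to compare the elements through which CREB and related factors bind. RefSeq windows (GRCm38.p6) were given for 7 of the 10 members, and none for Egr1, Arc or Ier2. The 250 bases before the start were searched on both strands, and elements farther upstream were not searched. Capitals mark TGACG, the core of the cAMP response element, or its reverse CGTCA, the full element TGACGTCA that contains it on both strands, and TATAAA. The windows, written 5′ to 3′ on the gene's strand, are chr12:85473640-85473889 (Fos, plus strand), chr8:84978749-84978998 (Junb, minus strand), chr15:101266596-101266845 (Nr4a1, plus strand) and chr17:26508473-26508722 (Dusp1, minus strand).
Fos: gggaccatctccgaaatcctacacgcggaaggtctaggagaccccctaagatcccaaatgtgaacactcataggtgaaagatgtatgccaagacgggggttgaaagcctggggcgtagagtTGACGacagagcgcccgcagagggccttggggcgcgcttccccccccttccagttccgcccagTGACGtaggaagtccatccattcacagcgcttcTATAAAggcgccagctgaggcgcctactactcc
Junb: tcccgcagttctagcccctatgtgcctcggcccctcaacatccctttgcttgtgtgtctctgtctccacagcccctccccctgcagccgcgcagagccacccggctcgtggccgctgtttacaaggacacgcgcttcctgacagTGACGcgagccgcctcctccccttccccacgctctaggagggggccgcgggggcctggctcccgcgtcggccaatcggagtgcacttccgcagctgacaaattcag
Nr4a1: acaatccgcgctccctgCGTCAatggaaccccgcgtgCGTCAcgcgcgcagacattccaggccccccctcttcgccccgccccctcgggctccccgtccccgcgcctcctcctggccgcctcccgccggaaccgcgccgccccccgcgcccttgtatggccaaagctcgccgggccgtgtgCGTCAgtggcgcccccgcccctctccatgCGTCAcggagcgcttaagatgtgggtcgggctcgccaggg
Dusp1: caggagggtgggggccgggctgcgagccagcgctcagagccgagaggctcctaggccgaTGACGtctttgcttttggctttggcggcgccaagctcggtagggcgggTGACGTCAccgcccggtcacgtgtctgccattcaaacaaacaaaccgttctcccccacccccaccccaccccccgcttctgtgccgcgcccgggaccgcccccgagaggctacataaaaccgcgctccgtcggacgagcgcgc
TGACG was found in a window of 7 of the 7 members (for Egr2 in 3 of its 5 windows), beside 17.8% of all 32851 promoter windows. Nr4a1 held 4 matches, Dusp1 held 3, of which a pair forms its full TGACGTCA, Fos and Npas4 held 2 each, and Junb and Fosb held 1 each. The full TGACGTCA was found for Dusp1 alone, beside 1.55% of all windows. TATAAA was found for Fos alone, beside 12.4% of all windows. A CArG box, the element that SRF binds, was found only in windows of Egr2, beside 1.47% of all windows. The EGR element GCGNGGGCG was found once each for Fosb and Nr4a1, beside 4.70% of all windows, and the AP-1 element TGANTCA was found for no member, beside 6.75%. Members called between the days and members not called both held TGACG. A match describes these letters only.

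Replicates of 1 group varied together across members at day 7. Among the 3 control libraries of total RNA, replicate 3 was lowest for 8 of the 10 members and highest for Ier2. Among the 3 control libraries of polysomal RNA, replicate 3 was lowest for 9 and again highest for Ier2. Among the SMA libraries, replicate 3 was highest for 7 of the 10 members in each fraction, including Fos, Egr1, Arc, Nr4a1 and Dusp1 in both. SMA replicate 2 was lowest for Junb, Egr1, Arc and Nr4a1 in both.

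For most members, deviations from the group mean were alike in the pair of libraries, total and polysomal, that bear 1 number. Over the 10 pairs of such libraries, the deviations on the log2 scale correlated with r = 0.91 for Arc, 0.91 for Nr4a1, 0.78 for Egr2, 0.72 for Egr1, 0.69 for Junb, 0.63 for Fos and 0.43 for Npas4. It was lower for Dusp1 at 0.12, Fosb at 0.02 and Ier2 at -0.17. The median over tested genes was 0.23 and the 90th percentile 0.75. At day 7 alone, over 6 pairs, r was 0.99 for Fos, 0.99 for Nr4a1, 0.95 for Arc, 0.95 for Egr1, 0.82 for Npas4, 0.78 for Junb, 0.65 for Fosb, 0.61 for Dusp1, 0.47 for Egr2 and -0.05 for Ier2. These are descriptions over libraries that may share a brain, and over all tested genes the same-numbered libraries did not deviate together in every group.

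**Figure D3:**
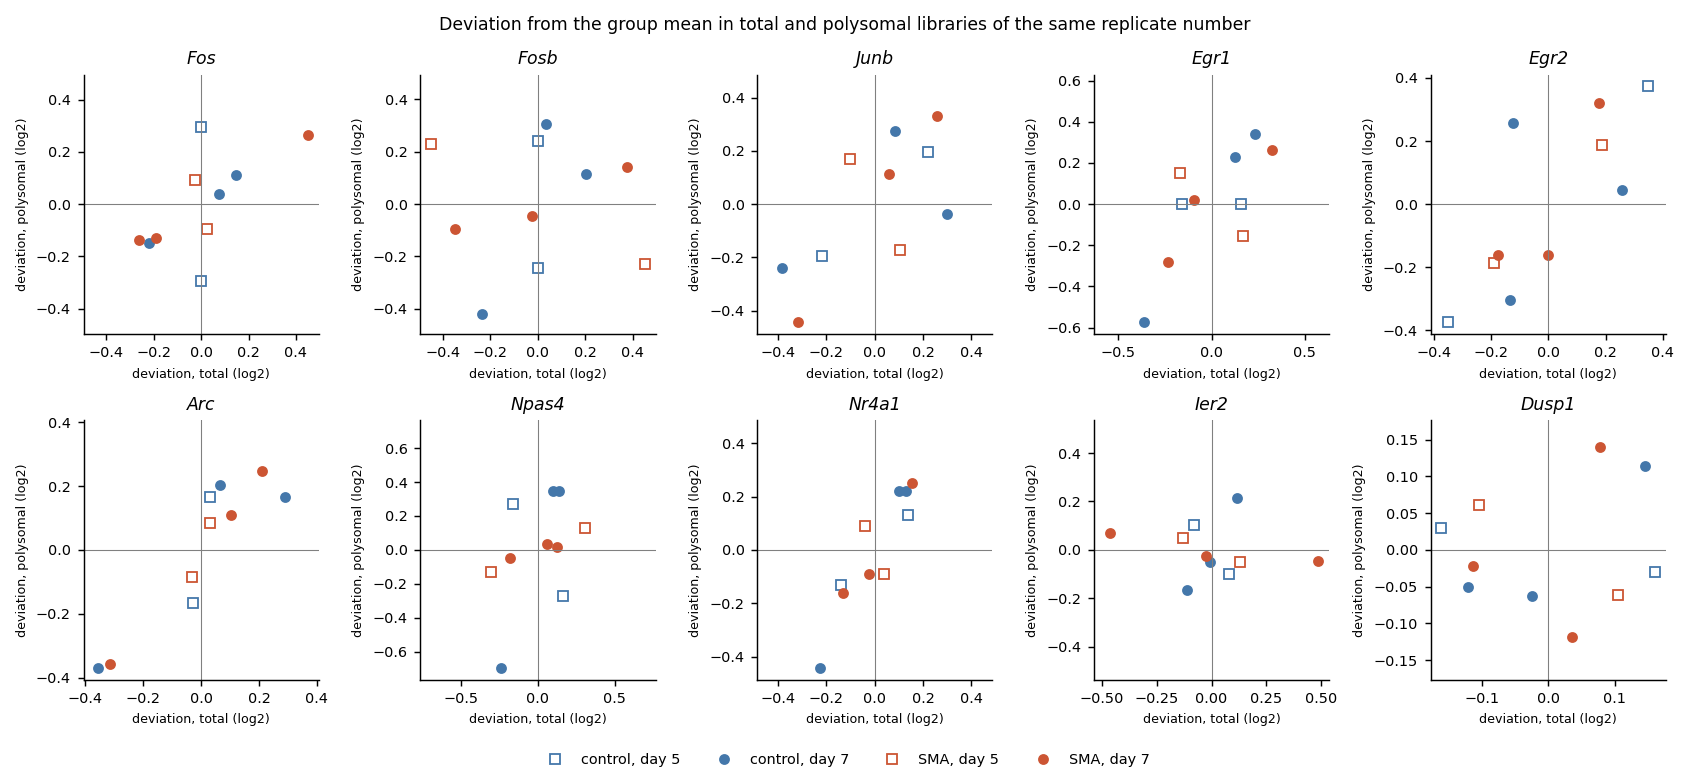
Deviation of log2(FPKM + 0.1) from the group mean in the total library (x axis) and in the polysomal library of the same replicate number (y axis), for each member, with open squares for day 5 and filled circles for day 7. The day 7 points of Fos, Egr1, Arc and Nr4a1 lie along a rising line (r = 0.95 to 0.99, 6 pairs), and those of Ier2 do not.

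Between members, Egr1 and Nr4a1 were the closest pair. After the group means were removed, their r over the 10 libraries was 0.95 in total and 0.93 in polysomal RNA. Egr1 and Arc had 0.80 and 0.79, Fos and Egr1 had 0.81 and 0.55, and Arc and Junb had 0.78 and 0.62. Ier2 ran against Fos in total RNA with -0.83, but not in polysomal RNA with 0.18. Its r with Egr1 was -0.53 and -0.61. Over the 21 pairs of tested members the median was 0.33 in total and 0.48 in polysomal RNA, from -0.83 to 0.95 and from -0.69 to 0.93.

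SMA and control brains were compared within each stage and fraction, which asks whether the disease goes with a change of these genes. Few members differed between the genotypes, and no adjusted p was under 0.05. A gene was called at an unadjusted p under 0.05, the threshold of the study. At day 5 in total RNA 0 of 7 tested members were called, beside 8.25% of all tested genes. At day 5 in polysomal RNA 1 of 7 was called, beside 12.5%. At day 7 the counts were 0 of 7 in total RNA, beside 9.54%, and 1 of 7 in polysomal RNA, beside 10.7%. The called member was Ier2 on both days. These shares are near the background. With 2 against 2 libraries an exact permutation test of 1 gene cannot give a p below 0.333, and with 3 against 3 none below 0.1, so these p-values rest on the spread that limma shares between genes.

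Ier2 was lower in SMA polysomal RNA. Its SMA values of 1.70 and 1.58 FPKM at day 5 and 1.34, 1.36 and 1.46 FPKM at day 7 lay under the control values of 2.36 and 2.73 FPKM and of 1.56, 1.70 and 2.06 FPKM, with no overlap on either day. The log2 change was -0.60 ± 0.14 (SE, 0.659-fold, 95% interval -1.01 to -0.19, adjusted p = 0.386) at day 5 and -0.33 ± 0.11 (SE, 0.798-fold, 95% interval -0.62 to -0.03, adjusted p = 0.428) at day 7. In total RNA at day 5 controls had 2.25 and 2.00 FPKM and SMA had 1.38 and 1.67 FPKM, with no overlap and a log2 change of -0.46 ± 0.15 (SE, 95% interval -0.92 to 0.01, adjusted p = 0.551). In total RNA at day 7 the genotypes overlapped, with 1.50, 1.62 and 1.77 FPKM in controls and 2.08, 1.43 and 1.03 FPKM in SMA (log2 change -0.15 ± 0.25, SE, adjusted p = 0.882). Both calls lay near the threshold, and were mostly lost, at a similar size, when 1 library was left out. The day 5 polysomal value was no longer called without control replicate 2 (-0.50), SMA replicate 1 (-0.65) or SMA replicate 2 (-0.55), each of which leaves 1 library in a group, assumed to vary like the other group. The day 7 polysomal value was no longer called without control replicate 2 or any 1 SMA replicate, where it was between -0.36 and -0.30. With all libraries it was also no longer called with no filter on low values (-0.33), with rescaled libraries (-0.32) or in 1 model (-0.33). Over all genes the day 5 changes also went with transcript length (Spearman's rho 0.39 in total and 0.31 in polysomal RNA, over 15162 genes). Ier2 has the shortest transcript of the members, 1522 bases, and with a correction for length its day 5 polysomal change was -0.45 and no longer called. The trend with length also concerns the day 5 changes of the other members, such as Junb at 1809 bases and Egr1, the longest, at 4484 bases.

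Among the other AP-1 members, Junb had lower means in SMA in all 4 comparisons. At day 5 in polysomal RNA it had 5.19 and 3.94 FPKM in controls and 3.46 and 2.71 FPKM in SMA, with no overlap and a log2 change of -0.55 ± 0.23 (SE, 95% interval -1.25 to 0.15, adjusted p = 0.428). In the other comparisons its log2 changes were between -0.45 and -0.28, and the genotypes overlapped. Without control replicate 3 the change in total RNA at day 7 was -0.65 and was called, and without SMA replicate 2 it was -0.30. The other Junb changes also moved with single libraries. They ran from -0.50 to -0.07 in day 5 total RNA, from -0.74 to -0.35 in day 5 polysomal RNA and from -0.47 to -0.09 in day 7 polysomal RNA. The values nearest 0 came without control replicate 1 at day 5 and without SMA replicate 2 at day 7. Fos had log2 changes between -0.25 and -0.08. At day 7 in total RNA, SMA replicate 3 had the highest Fos value of both genotypes, 4.59 FPKM, and without it the change was -0.47 and was called. Without SMA replicate 3 of the polysomal libraries the day 7 change of Fos was -0.33 and was called as well. Fosb at day 7 in total RNA had 0.36, 0.31 and 0.24 FPKM in controls and 0.10, 0.15 and 0.23 FPKM in SMA, with no overlap. Its log2 change of -0.65 ± 0.24 (SE, 95% interval -1.29 to -0.02, adjusted p = 0.726) comes from the fit with no filter. In the same fit its change was 0.11 in total and 0.08 in polysomal RNA at day 5. In day 7 polysomal RNA it was -0.38, and neither this nor the day 5 changes were called.

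Arc had lower means in SMA in all 4 comparisons, with log2 changes between -0.39 and -0.21, none of them called. At day 5 its genotypes did not overlap in either fraction, with 1.87 and 2.38 FPKM in controls and 1.77 and 1.56 FPKM in SMA in polysomal RNA. At day 7 the SMA values in total RNA, 2.80, 2.07 and 3.02 FPKM, overlapped the controls through control replicate 3 at 2.65 FPKM, and without that library the change was -0.56 and was called. Without SMA replicate 2 it was -0.23. In polysomal RNA the change of Arc went from -0.33 to -0.16 at day 5 without control replicate 2, and from -0.36 to -0.18 at day 7 without SMA replicate 2.

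Egr1 and Nr4a1 were higher in SMA in day 5 polysomal RNA without overlap. Egr1 had a log2 change of 0.35 ± 0.15 (SE, 95% interval -0.10 to 0.80, adjusted p = 0.429) and Nr4a1 of 0.37 ± 0.15 (SE, 95% interval -0.09 to 0.83, adjusted p = 0.424), with 1.51 and 1.24 FPKM in controls and 1.68 and 1.92 FPKM in SMA for Nr4a1. With 1 library left out the change of Egr1 ran from 0.20 to 0.50 and that of Nr4a1 from 0.24 to 0.50. Egr1 was at 0.50 without SMA replicate 1. There the SMA library that remains has no spread of its own. It is assumed to vary like the controls, which were both at 1.41 FPKM. In the other 3 comparisons Egr1 was between -0.23 and -0.05 and Nr4a1 between 0.02 and 0.06, all with overlap. Dusp1 ran from -0.12 to 0.16, and its day 7 means were higher in SMA in both fractions. Egr2 and Npas4, from the fit with no filter, were called in none of the 4 comparisons, with log2 changes between -0.57 and 0.60.

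Groups that do not overlap were frequent among all genes at day 5, where only 2 libraries stood against 2. In total RNA 3 of the 7 tested members (Fos, Arc and Ier2, all lower) were apart, beside 47.6% of all tested genes, and in polysomal RNA 6 of 7 (4 lower and 2 higher), beside 50.5%. At day 7 it was 0 of 7 in total, beside 15%, and 1 of 7 in polysomal RNA, beside 16.1%. In each of the 4 comparisons 5 of the 7 tested members had a log2 change under 0, beside 48.0% and 52.7% of all tested genes in total and polysomal RNA at day 5 and 49.0% and 48.6% at day 7. Some of these signs turned with the processing. With the length correction Fos at day 5 was 0.034 in total and 0.018 in polysomal RNA, with rescaled libraries Nr4a1 in day 5 total RNA was -0.022, and leaving out 1 library turned the sign of Fos, Egr1, Nr4a1, Ier2 or Dusp1 in 1 or more of the comparisons.

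**Figure D4:**
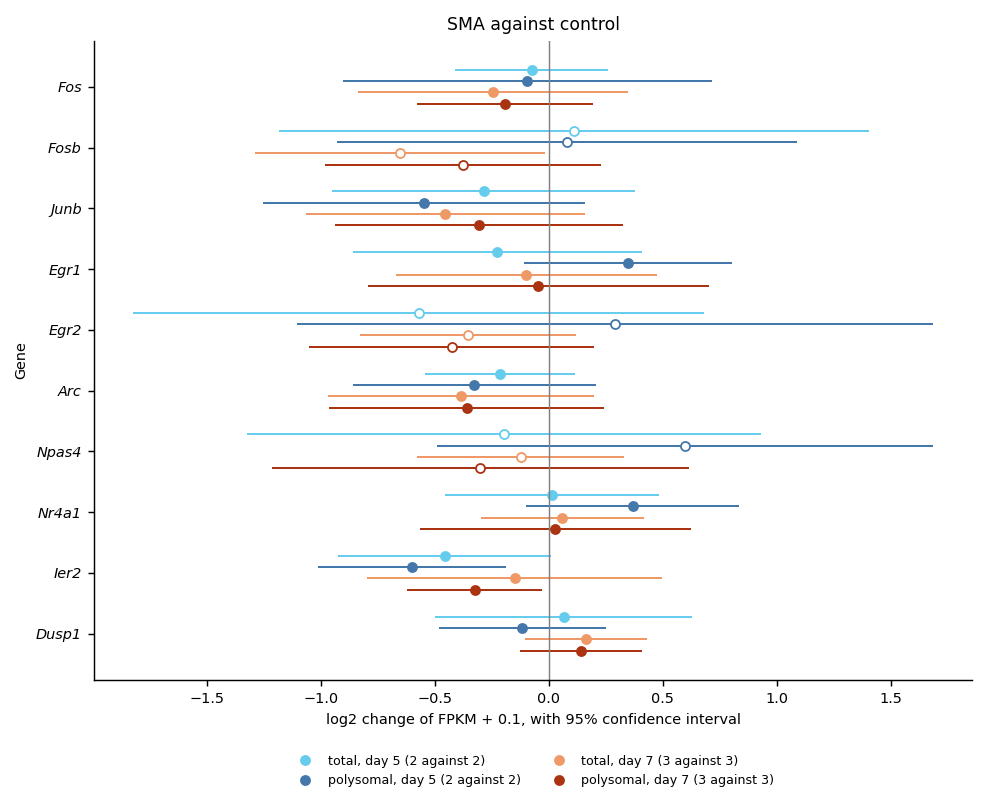
log2 change of FPKM + 0.1 in SMA against control (x axis) for each member (y axis) with 95% confidence intervals, in 2 fractions at 2 days (2 against 2 libraries at day 5 and 3 against 3 at day 7). Filled points are tested members and open points come from the fit with no filter. Among tested members the interval leaves out 0 for Ier2 in polysomal RNA alone, on both days.

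The differences between the genotypes were not shown to differ between the stages. For the interaction of genotype and stage 0 of 7 tested members were called in total RNA, beside 10.1% of all tested genes, and 0 of 7 in polysomal RNA, beside 13.7%. Over all genes these interactions also went with transcript length (Spearman's rho -0.38 in total and -0.34 in polysomal RNA). The interaction for Ier2 was 0.31 ± 0.36 (SE, adjusted p = 0.725) in total and 0.28 ± 0.18 (SE, adjusted p = 0.500) in polysomal RNA. The tested members lay between -0.17 and 0.31 in total and between -0.40 and 0.28 in polysomal RNA, and Fosb, Egr2 and Npas4, from the fit with no filter, had -0.76, 0.22 and 0.07 in total and -0.46, -0.72 and -0.90 in polysomal RNA, none of them called. Without control polysomal replicate 3 of day 7, the interactions of Egr1 (-0.68), Nr4a1 (-0.56) and Ier2 (0.38) were called in polysomal RNA.

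Other immediate early genes were also counted between the genotypes. Of all tested genes 8.25% were called in total and 12.5% in polysomal RNA at day 5, and 9.54% and 10.7% at day 7. Of 7 tested EGR, NR4A and KLF genes, Nr4a2, a nuclear receptor needed for dopamine neurons, rose in SMA at day 5. In total RNA it had 8.22 and 9.23 FPKM in controls and 22.5 and 17.1 FPKM in SMA (log2 change 1.16 ± 0.18, SE, adjusted p = 0.551), and in polysomal RNA 8.82 and 9.95 against 17.8 and 14.6 FPKM (0.78 ± 0.15, SE, adjusted p = 0.381). At day 7 its values overlapped. Klf2, a factor best known from endothelial cells, was lower in SMA total RNA, with 1.91 and 1.99 FPKM in controls and 1.20 and 1.39 FPKM in SMA at day 5 (-0.56 ± 0.12, SE, adjusted p = 0.551) and 2.37, 2.96 and 2.84 against 1.85, 2.04 and 1.72 FPKM at day 7 (-0.52 ± 0.12, SE, adjusted p = 0.326). Klf2 was also lower in polysomal RNA at day 7 (-0.36 ± 0.12, SE, adjusted p = 0.408). Of 17 tested feedback and signaling genes, 1 rose and 1 fell at day 5 in each fraction, and 0 passed at day 7. The circadian gene Per1 was the one that rose (0.80 and 0.88), and those that fell were Dusp5, by 0.41 in total RNA, and Gadd45b, by 0.51 in polysomal RNA. Of 5 tested AP-1 and related bZIP genes 1, Fosl1, rose in day 5 polysomal RNA (0.35), and 0 passed in the other 3 comparisons. None of these adjusted p was under 0.05. Of 10 tested effector genes of neuronal activity at most 1 passed in a comparison, of which Nrn1 fell by 0.43 in day 5 polysomal RNA, Scg2 rose by 0.23 in day 7 total RNA and Homer1 fell by 0.15 in day 7 polysomal RNA. Of the 19 upstream kinases and transcription factors 0 rose and 1 fell in day 5 total RNA, 1 rose and 0 fell in day 5 polysomal RNA, 0 rose and 2 fell in day 7 total RNA, and 0 rose and 1 fell in day 7 polysomal RNA. Elk3, a partner of SRF found in vessels, was lower in SMA in total RNA at both days (-0.48 and -0.43) and in polysomal RNA at day 7 (-0.45). Mef2d was higher in day 5 polysomal RNA (0.46), and Creb1 was lower in day 7 total RNA (-0.19).

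Vessel markers and stress-hormone targets moved with the genotype. All 6 endothelial markers fell in SMA in total RNA at both days and in polysomal RNA at day 7, and 4 of 6 at day 5 in polysomal RNA, with median log2 changes between -0.80 and -0.64. Their sum in total RNA at day 5 was 69.4 and 76.2 FPKM in controls and 32.5 and 34.3 FPKM in SMA, and in polysomal RNA 90.3 and 134.2 FPKM against 38.4 and 49.7 FPKM. At day 7 it was 44.2, 50.9 and 58.5 FPKM against 25.6, 25.7 and 29.9 FPKM in total, and 58.2, 59.4 and 68.4 FPKM against 30.3, 31.7 and 37.5 FPKM in polysomal RNA. The most abundant was Cldn5, and none was at 0. Of 5 pericyte and smooth muscle markers 2, 2, 4 and 5 fell in day 5 total, day 5 polysomal, day 7 total and day 7 polysomal RNA, respectively. Of 7 glucocorticoid-induced genes 4, 3, 4 and 4 rose in the same order and 0 fell, led by Fam107a (log2 change between 1.73 and 2.19). The part of these in the values of Ier2 or any other member, or of Klf2, which is not a member, was not tested. Of 8 neuron markers 1 rose in day 5 total RNA and 2 in day 7 total RNA, 0 passed in day 7 polysomal RNA, and in day 5 polysomal RNA the only one called was Tubb3, listed at 0 in the controls. No more than 1 of 5 astrocyte and 1 of 5 oligodendrocyte lineage markers passed in any of the 4 comparisons, and for microglia 1, 1, 3 and 1 of 5 did in that order. The 3 tested choroid plexus markers rose at day 7 in both fractions (median log2 change 0.88 and 0.91), and 0 of 3 passed at day 5. Of 6 tested blood markers 2, 1, 1 and 1 passed.

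Polysomal and total RNA were compared to ask which transcripts were relatively higher or lower in the polysomal pool. FPKM is scaled within each library, so a shift shared by all transcripts would not show. The total pool also holds the polysomal fractions. At day 5 Egr1 and Nr4a1 were lower in polysomal than in total RNA. Of the 7 tested members 2 were lower and 0 higher at an adjusted p under 0.05, beside 7.75% of all tested genes lower and 5.64% higher. Egr1 ran from 1.41 to 2.04 FPKM in polysomal and from 2.06 to 3.06 FPKM in total RNA, without overlap, and its log2 difference was -0.62 ± 0.14 (SE, 0.650-fold, adjusted p = 0.0444). Nr4a1 ran from 1.24 to 1.92 FPKM and from 2.07 to 2.53 FPKM, also without overlap, with -0.53 ± 0.11 (SE, 0.695-fold, adjusted p = 0.0439). Neither passed when the libraries of any 1 replicate number of a genotype were left out, where the values were between -0.78 and -0.46 for Egr1 and between -0.59 and -0.46 for Nr4a1. With all libraries both calls were also lost with no filter on low values (adjusted p = 0.0723 and 0.0701) and in a fit blocked on replicate number, without the length correction (adjusted p = 0.119 and 0.0967) or with it (adjusted p = 0.0776 and 0.0667). In 1 model over all 20 libraries 3 of the 7 tested members were called, beside 34.2% of all tested genes. Dusp1 had -0.35 ± 0.11 (SE, adjusted p = 0.0822), and Junb, the highest in polysomal RNA, had 0.42 ± 0.16 (SE, adjusted p = 0.135). Fos had 0.22, Ier2 0.18 and Arc -0.20, and from the fit with no filter Fosb had -0.11 and Egr2 -0.28 ± 0.28 (SE, adjusted p = 0.544).

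At day 7 none of the 7 tested members passed, beside 12% of all tested genes lower and 18% higher. At an unadjusted p under 0.05 the count was also 0. Egr1 had -0.20 ± 0.19 (SE), Nr4a1 -0.23 ± 0.14 (SE), Arc -0.30 ± 0.17 (SE) and Dusp1 -0.13 ± 0.07 (SE). Fos had 0.10, Junb 0.04 and Ier2 0.02. This fit takes the libraries as unpaired. Egr1 was lower in the polysomal library of all 6 same-numbered pairs, and in a fit blocked on replicate number Egr1, Arc and Nr4a1 were called lower at the same log2 differences (limma adjusted p = 0.0469, 0.00819 and 0.0378), beside 13.9% of all tested genes lower and 23.7% higher in that fit. The labels do not show that the numbers pair the libraries. Over all genes, same-numbered libraries of day 7 deviated together weakly in SMA (r from 0.070 to 0.109) and not in controls (r from -0.015 to 0.014). Npas4, from the fit with no filter, was lower in polysomal RNA at both days. At day 7 it had 0.97, 0.97 and 0.42 FPKM (controls) and 0.56, 0.60 and 0.59 FPKM (SMA) in polysomal RNA, against 1.33, 1.29 and 1.00 FPKM and 0.95, 1.14 and 1.20 FPKM in total RNA (log2 difference -0.71 ± 0.19, SE, adjusted p = 0.0365). At day 5 its difference was -0.79 ± 0.23 (SE, adjusted p = 0.119). Egr2 at day 7 had -0.36 ± 0.14 (SE, 95% interval -0.69 to -0.04, adjusted p = 0.140) and Fosb 0.09, also with no filter. The difference between the days in polysomal against total RNA, a comparison added after the data were seen, was called for 0 of 7 tested members at an unadjusted p under 0.05, beside 14.1% of all tested genes. It was 0.42 for Egr1 (95% interval -0.15 to 0.98) and 0.30 for Nr4a1 (-0.12 to 0.72). In the fit blocked on replicate number these and Junb (-0.38) were called, 3 of 7, beside 16.6% of all tested genes in that fit.

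**Figure D5:**
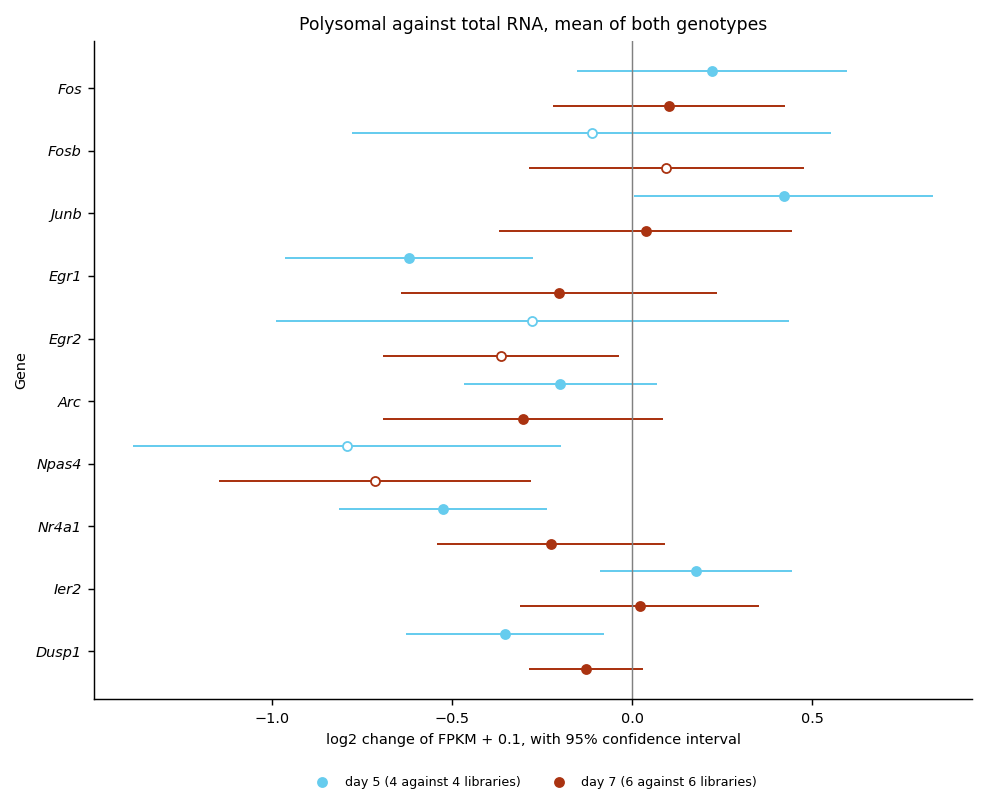
log2 difference of FPKM + 0.1 between polysomal and total RNA (x axis) for each member (y axis), as the mean of both genotypes with 95% confidence intervals, at day 5 (4 against 4 libraries) and day 7 (6 against 6). Filled points are tested members and open points come from the fit with no filter. Egr1, Egr2, Arc, Npas4, Nr4a1 and Dusp1 lie left of 0 on both days, and Fos, Junb and Ier2 lie right of it.

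The difference between polysomal and total RNA, relative to other transcripts, was not shown to depend on the genotype. For this change in polysome association 0 of 7 tested members were called at day 5, beside 2.32% of all tested genes, and 0 of 7 at day 7, beside 2.07%. The widest value among tested members was that of Egr1 at day 5, 0.57 ± 0.27 (SE, 95% interval -0.11 to 1.26). With 1 replicate left out it ran from 0.25 to 0.89, the highest without SMA replicate 1. There each SMA fraction holds 1 library and the spread comes from the controls. The other tested members lay between -0.26 and 0.35 at day 5. At day 7 all 7 lay between -0.18 and 0.15. For Ier2 the values were -0.14 (95% interval -0.67 to 0.38) at day 5 and -0.18 (-0.83 to 0.48) at day 7. Fosb, Egr2 and Npas4, from the fit with no filter, had -0.03, 0.86 and 0.79 at day 5 and 0.28, -0.07 and -0.18 at day 7, none of them called.

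Genes most like the members across libraries were ranked by their correlation with the mean profile of the 7 tested members, over the 10 total RNA libraries. The 10 highest of 13094 protein-coding genes were Tmem47 (r = 0.99), Dcaf12l1 (0.98), 1810055G02Rik (0.98), Atp6v1c1 (0.97), Mal2 (0.97), Vip (0.97), Susd5 (0.97), Brinp1 (0.97), Tspyl1 (0.97) and Cap2 (0.96). In the 10 polysomal libraries their r was between 0.34 for Tspyl1 and 0.96 for Susd5. After the group means were removed their r was between 0.76 and 0.93 in total RNA and between 0.07 and 0.84 in polysomal RNA. Among the listed relatives of the members, Egr3 came highest, at rank 63 (r = 0.94 in total and 0.89 in polysomal RNA). The libraries share the step between the days, which enters each r.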

How the data were processed

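Brain RNA of SMA and control mice was measured in 20 libraries, total cytoplasmic and polysomal, at postnatal days 5 and 7. Per the labels and the study's methods, the authors aligned reads to GRCm38 with TopHat 2.0.14 and made the deposited FPKM values with Cufflinks 2.2.1 on Gencode annotation, so the values are scaled to mapped fragments and transcript length, and depth behind a value is unknown. Libraries were grouped by the labels. Values were analysed as log2(FPKM + 0.1) with limma 3.58.1 (lmFit, eBayes with trend) in R 4.3.3 on the 15247 genes that averaged 1 FPKM or more, with Benjamini-Hochberg adjustment over all of them. Fold changes are on this scale and understate those of low genes. Polysome association and differences between stages or days were interactions. The fits were tested on simulated data. All 10 members are described, by value or by range, in each genotype, stage, day and fraction comparison, except in the added difference between days of polysomal against total RNA. Of each other list, up to 3 genes per direction with the largest change among those called without overlap were eligible in genotype comparisons. In the other comparisons the named list genes were chosen after their values were seen. The members and lists were chosen with earlier results of these data known. Overlapping genes could share reads.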

Additional observations from a re-analysis of the deposited data

How the results depend on the processing

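Results were recomputed with a pseudocount of 1 FPKM, with no filter on low values, with libraries rescaled to equal medians, in 1 model over all 20 libraries, with the replicate number as a block, with a correction for transcript length, with both, and without each replicate. The rises of Egr1, Nr4a1 and Dusp1 from day 5 to day 7 passed in both fractions under all of these. The number of members called was 0 under all of them for the change in polysome association at day 7 and for the difference between stages in total RNA. With a pseudocount of 1 FPKM, 1 member (Ier2) was called in SMA against control in day 5 total RNA. SMA against control in day 7 polysomal RNA gave 0 with no filter, with rescaled libraries and with 1 model. In day 5 polysomal RNA it gave 0 with the length correction, alone or with the block. Polysomal against total RNA at day 5 gave 0 with no filter. It gave 3 with 1 model, where 34.2% of all tested genes were called, beside 13.4% in the main fit. Arc also passed for day 7 against day 5 in total RNA with rescaled libraries (0.49), with 1 model (0.44) and with the length correction, alone (0.49) or with the block (0.53), and Ier2 did not pass in polysomal RNA with 1 model (-0.37) or with the block and the length correction (-0.40). Over all tested genes, same-numbered total and polysomal libraries deviated together, weakly, in the SMA group of day 7 (r from 0.070 to 0.109). In the other groups r lay between -0.039 and 0.014, so the numbers were not shown to pair the libraries throughout. With the replicate block, the count was 2 for SMA against control in day 5 polysomal RNA (Ier2 and Junb), 0 for polysomal against total RNA at day 5, 3 at day 7 (Egr1, Arc and Nr4a1) and 3 for the difference between days in polysomal against total RNA (Junb, Egr1 and Nr4a1). Of all tested genes 13.2%, 1.63%, 37.5% and 16.6% were called in the same fits. With the block and the length correction the counts were 0, 0, 4 and 3, beside 12%, 5.92%, 34% and 17.8% of all tested genes. The cause was not tested.

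Without 1 replicate, the count ran from 0 to 1 for SMA against control at day 5 in each fraction and at day 7 in polysomal RNA, and from 0 to 2 at day 7 in total RNA. It ran from 0 to 1 for the change in polysome association at day 5, from 0 to 3 for the difference between stages in polysomal RNA, and from 0 to 2 for the difference between days in polysomal against total RNA. It was 0 throughout for polysomal against total RNA at both days. It ran from 3 to 4 for day 7 against day 5 in total RNA, where Arc was added, and from 4 to 5 in polysomal RNA, where Fos was added. At day 5 leaving out 1 library leaves 1 in its group, which is assumed to vary like the other groups.

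Sign changes occurred only in values that were not called before or after. Nr4a1 in SMA against control in day 5 total RNA was -0.022 and Arc in the difference between stages in polysomal RNA was 0.0035 with rescaled libraries. With the length correction, with or without the block, Fos in SMA against control at day 5 was 0.034 in total and 0.018 in polysomal RNA, Nr4a1 in the difference between stages in total RNA was -0.021, and Ier2 in polysomal against total RNA at day 7 was -0.0078. Without 1 replicate, the log2 changes that crossed 0 were Dusp1 (-0.095 to 0.23) and Nr4a1 (-0.12 to 0.15) for SMA against control in day 5 total RNA, Fos (-0.39 to 0.20) for in day 5 polysomal RNA, Egr1 (-0.28 to 0.018), Ier2 (-0.39 to 0.081) and Nr4a1 (-0.054 to 0.13) for in day 7 total RNA, and Egr1 (-0.33 to 0.12) and Nr4a1 (-0.19 to 0.14) for in day 7 polysomal RNA. They were also Arc (-0.25 to 0.022), Dusp1 (-0.37 to 0.0095), Fos (-0.31 to 0.28), Ier2 (-0.33 to 0.038) and Junb (-0.54 to 0.011) for the change in polysome association at day 5, and Arc (-0.037 to 0.095), Dusp1 (-0.066 to 0.056), Egr1 (-0.054 to 0.11), Fos (-0.0095 to 0.15), Ier2 (-0.44 to 0.090), Junb (-0.020 to 0.24) and Nr4a1 (-0.14 to 0.030) for the same at day 7. The others were Dusp1 (-0.064 to 0.26), Egr1 (-0.053 to 0.29), Junb (-0.39 to 0.050) and Nr4a1 (-0.093 to 0.18) for the difference between stages in total RNA, and Arc (-0.22 to 0.15) and Fos (-0.39 to 0.20) for the difference between stages in polysomal RNA, and Ier2 (-0.11 to 0.15) and Junb (-0.011 to 0.12) for polysomal against total RNA at day 7, Junb (-0.030 to 0.19) for day 7 against day 5 in total RNA, and Fos (-0.27 to 0.028) for the difference between days in polysomal against total RNA.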
